A study of Mus musculus with 2 samples.

Results

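The 6 receptors described here are Olfr15, Olfr16, Olfr43, Olfr62, Olfr73 and Olfr1440, class II odorant receptors of the mouse for which odorants are known. They were taken by name from a deposited table of 1112 rows, each row an olfactory receptor (Olfr) gene or a pair of them. All 6 names were found once. RNA came from the olfactory epithelium of adult C57BL/6 mice. The series holds 2 samples, which share strain, stage and tissue and whose titles and genotype labels both say wild type, while the description of the second reads 3bko, a term the sources used here do not explain. Each row has 1 FPKM (a count of mapped fragments divided by gene model length and by library size) and names both samples, so the value cannot be tied to either of them. There is no replicate, no error and no test below, and sequencing depth is unknown.

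Odorant receptors are G protein-coupled receptors on the cilia of olfactory sensory neurons. A mature neuron usually expresses a single receptor allele, so the level of a receptor in bulk tissue depends both on how many neurons chose it and on how much RNA each of them holds. Fewer neurons of a kind and less RNA per neuron cannot be told apart in these data. A bound odorant acts through the olfactory G protein, adenylyl cyclase and a cyclic nucleotide-gated channel. None of the 14 genes listed for that pathway, and none of 21 markers of neurons, supporting cells, basal cells or other cells, is in the table, which holds receptors only, so the labelled tissue could not be checked against its markers.

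The receptors stand for different odour qualities. Olfr16, also called MOR23, responds to the floral compound lyral. Olfr73, also called mOR-EG, responds to eugenol, the clove odorant, and Olfr62, known as mOR-EV, to ethyl vanillin. Olfr1440, also called MOR215-1, responds to muscone, the odorant of musk. Olfr43 is the mouse counterpart of human OR1A1 and responds to terpenoids such as citronellol. Olfr15, also called OR3 or MOR256-17, is known as a broadly tuned receptor. They belong to 6 different MOR families, the mouse grouping of receptors by sequence, and lie on 6 chromosomes.

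Their coding sequences were compared in pairs. Over the 15 pairs the identity of the aligned coding bases in GENCODE M21 ran from 59.0% (Olfr43 and Olfr73) to 64.0% (Olfr1440 and Olfr73), with a median of 60.6%. Identity to rows of a receptor's own family could be as low, from 55.3% to 68.5% for Olfr15 and 59.9% to 70.9% for Olfr16. For Olfr43, Olfr1440, Olfr73 and Olfr62 it was at least 66.0%. The part of the gene most alike among odorant receptors differed as well. The 30 bases below, read 5′ to 3′ on the coding strand, encode the end of the third transmembrane segment and the start of the loop after it, around the site of the DRY motif that many G protein-coupled receptors carry. The motif was complete in 4 of the 6, and not in Olfr43 and Olfr73. The share of all rows with the complete motif is not given here, so this count cannot be called usual or unusual. The 30 bases are shown because they differ among the 6 receptors, but they were not searched for in other genes. Olfr403, a near copy of Olfr43 described further on, differs from Olfr43 at no base of this stretch. Capitals mark the 15 of 30 positions at which all 6 receptors carry the same base.

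Olfr15: ATGGcaTtTGAtcGgtaTGtgGCagTttGt
Olfr43: ATGGcaTaTGAccGagcTGtgGCtaTcaGt
Olfr1440: ATGGctTaTGAccGgtaTGctGCcaTttGt
Olfr73: ATGGctTaTGAcaGgttTGtgGCcaTccGc
Olfr62: ATGGccTaTGAtaGgtaTGtgGCcaTttGc
Olfr16: ATGGgtTaTGAtcGttaTGtgGCtaTttGt

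The stretch starts at base 352 of the coding sequence in Olfr15, Olfr43 and Olfr16, at 355 in Olfr1440 and Olfr73 and at 361 in Olfr62. Set against Olfr62, the receptors differed at 5 positions (Olfr73) to 10 positions (Olfr43) of the 30. The other pairs were not compared over this stretch.

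Each of the 6 receptors had the status OK, which 909 of all 1112 rows had, the others being NOTEST. The status was not read as detection. FPKM was as low as 0.0889 among OK rows and as high as 0.324 among NOTEST rows. The levels of the 6 covered a wide range. The broadly tuned receptor Olfr15 had an FPKM of 25.95 and the terpenoid receptor Olfr43 had 7.11. The muscone receptor Olfr1440 followed with 3.99 and the eugenol receptor Olfr73 with 2.49. The ethyl vanillin receptor Olfr62 had 1.52 and the lyral receptor Olfr16 had 1.38. Olfr15 was therefore 18.8 times as high as Olfr16 and 3.65 times as high as Olfr43, the next of the 6, and alone made up 61.1% of their summed FPKM. The steps further down were smaller, with ratios of 1.78, 1.60 and 1.64 between successive receptors and 1.10 between Olfr62 and Olfr16. With 1 value per gene, whether any neighbours in this order differ beyond error could not be judged.

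**Figure D1:**
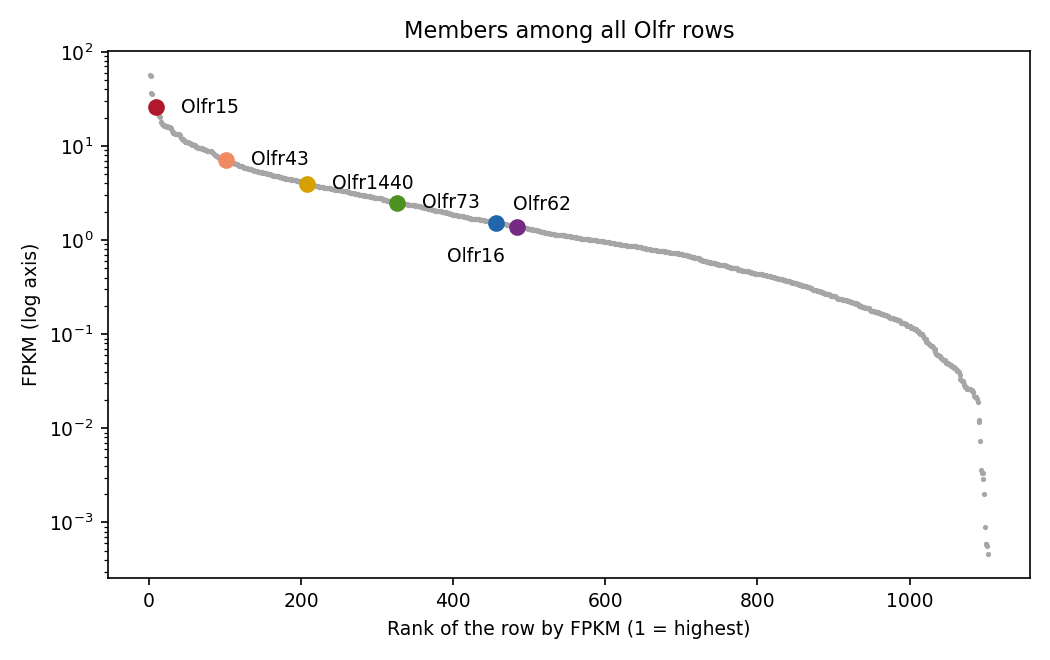
FPKM (log axis) of the Olfr rows against their rank, with 1 the highest; grey points are rows and coloured points the 6 receptors, and the 9 rows listed at 0 are not drawn. Olfr15 sits at rank 9 on the steep left end of the curve, and the other receptors lie on its flat part between ranks 101 and 484.

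In the order of all 1112 rows, Olfr15 ranked 9, Olfr43 101, Olfr1440 207, Olfr73 326, Olfr62 456 and Olfr16 484. Olfr15 was above 99.3% of the other rows, and the 2 lowest were above 59.0% (Olfr62) and 56.5% (Olfr16) of them. Among rows with status OK, which all 6 have, these 2 were above 49.9% and 46.8%. Each of the 6 had an FPKM of 1 or more, as did 52.5% of all rows. Their median was 3.24, against 1.09 over all rows and 1.27 over the 985 class II rows, a ratio of 2.98 to the median of all rows. The receptors are 0.540% of the rows and held 1.44% of the summed FPKM, of which Olfr15 contributed 0.878%. A list of 11 other receptors with known ligands or long use as models ran from 0.164 to 36.05 with a median of 1.79, and 7 of the 11 reached an FPKM of 1. Unlike the 6, the list includes class I receptors (Olfr78, Olfr544, Olfr545 and Olfr558). The row of Olfr78 has the same locus and FPKM as that of Olfr560.

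Rows of nearly the same level came from other families and places. Just above and below Olfr15 stood Olfr1301 (26.3) and Olfr741 (24.5), and the gap to the next row below was 5.78% of its value. For the other receptors the rows on either side were within 0.848% of the member's own FPKM, so their exact ranks rest on very small differences. Olfr43 lay between Olfr695 (7.15) and Olfr1178 (7.05), and Olfr1440 between Olfr532 (4.005) and Olfr1305 (3.96). Olfr73 was flanked by Olfr1381 (2.49) and Olfr126 (2.48), Olfr62 by Olfr381 (1.52) and Olfr870 (1.51), and Olfr16 by Olfr506 (1.39) and Olfr502 (1.38).

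Odorant receptor genes lie in clusters, and each receptor was next set against the 5 rows before and the 5 rows after it on its chromosome. Genomic clusters were taken as runs of Olfr rows with gaps under 1 Mb. Differences are given on the log2(FPKM + 0.1) scale, which understates the change of low genes. Of the 6 receptors, 5 lay above the median of their nearest rows, 4 were at least 2 times that median and 2, Olfr43 and Olfr73, were above every one of these rows. The last of these counts, 2 above every row, rests on the deposited values of Olfr43 and its near copy Olfr403, described further on. It was 1 with those values set equal or exchanged. Over all 1112 rows treated the same way, 49.2% lay above the median of their own nearest rows, 28.4% were at least 2 times that median and 9.53% were above every one of them. The interquartile range of the log2 difference over all rows was -1.17 to 1.07. Olfr43, Olfr15, Olfr73 and Olfr1440 lay above that range, at ranks 29, 41, 45 and 65, and Olfr16 and Olfr62 lay within it.

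**Figure D2:**
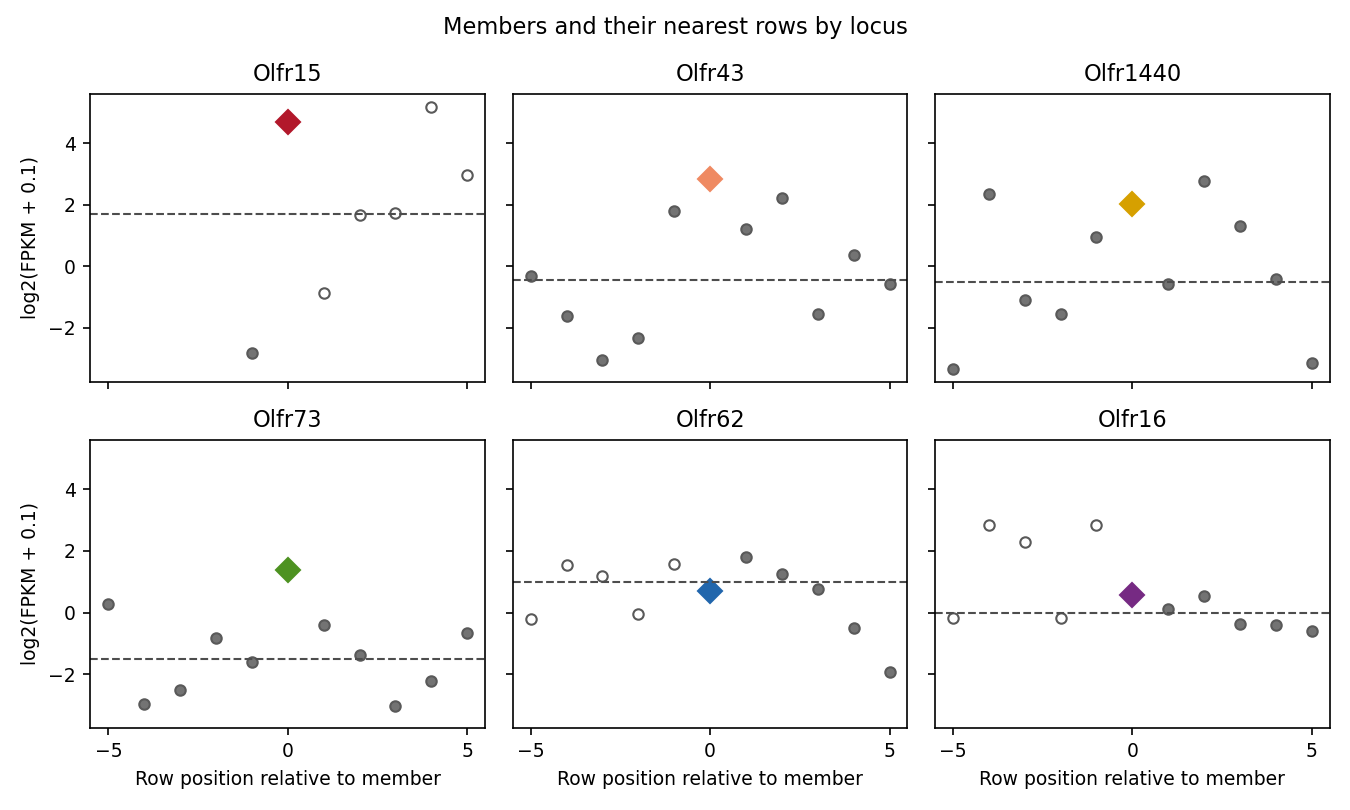
The y axis gives log2(FPKM + 0.1) and the x axis the row position on the chromosome relative to each receptor (diamond at 0); filled circles are rows of the same genomic cluster, open circles rows of another cluster, and the dashed line is the level of the median of the nearest rows. At the deposited values Olfr43 and Olfr73 stand above all 10 of their nearest rows, for Olfr43 only as long as its near copy Olfr403 is the lower of the pair, and Olfr62 stands below the line.

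Olfr73, the eugenol receptor (chromosome 2, 87874353 to 87875294, mm9), lay in the largest receptor cluster, 225 rows between 85.2 and 90.4 Mb. Its 10 nearest rows were all lower, from 0.0215 (Olfr1164) to 1.12 (Olfr1157) with a median of 0.255, and 6 of them had the status NOTEST. At 2.49 it was 9.77 times that median, a log2 difference of 2.87. The receptors immediately beside it, Olfr1161 at 8.48 kb and Olfr1162 at 14.5 kb, had 0.228 and 0.649. In the cluster as a whole, however, Olfr73 ranked 69, and the median of the other 224 rows was 1.11, so the low surroundings are local. Against the whole cluster its log2 difference was 1.10.

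Olfr43, the terpenoid receptor (chromosome 11, 74019700 to 74020791), was above all 10 of its nearest rows at the deposited values. With the values of Olfr43 and Olfr403 exchanged it was above 8, and with both at their mean above 9 and level with Olfr403. The rows ran from 0.0215 (Olfr401) to 4.57 (Olfr59) with a median of 0.643, so Olfr43 was 11.1 times the median, a log2 difference of 3.28. Olfr59 and the near copy Olfr403 (3.36) were the highest of these rows. In its cluster of 31 rows between 73.2 and 74.2 Mb it was second. Among neighbours with an FPKM of at least 0.1 the log2 difference fell to 2.08.

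Olfr1440, the muscone receptor (chromosome 19, 12468755 to 12469702), was above 8 of its 10 nearest rows. Olfr1442 (6.70) and Olfr235 (5.05) were higher, and Olfr262 was listed at 0. One of the rows, at 0.369, is a merged entry for Olfr1433 and Olfr1434. Their median was 0.606, which put Olfr1440 at 6.58 times the median and the log2 difference at 2.53. This contrast depended on which rows were counted. It was 1.39 against the other 60 rows of the cluster (11.9 to 14.0 Mb), in which Olfr1440 ranked 15, and 0.56 against the nearest rows whose coding sequence is at least 80% unique among Olfr transcripts.

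Olfr15, the broadly tuned receptor (chromosome 16, 3838975 to 3839913), has hardly any receptor neighbours. Only Olfr161, 245.6 kb away, shares its cluster, and at an FPKM of 0.0434 with status NOTEST it ranked 1059. Olfr15 ranked 9, so the 2 rows of this cluster lay near opposite ends of the table. The 5 rows on the other side begin with Olfr19 (0.444), 12833 kb away, and include Olfr166 at 36.5, the only one of the 6 nearest rows above Olfr15. Against all 6, with a median of 3.15, the log2 difference was 3.00.

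Olfr62 and Olfr16 stand at the edge of their clusters, so the rows before them in order are remote. Olfr62 (chromosome 4, 118338124 to 118339071) is the first row of a cluster of 13 that ends at 118.6 Mb. Beyond a gap of 59540 kb, the 5 rows before it ran from 0.767 to 2.86. The 5 rows after it declined with distance, from Olfr1342 (3.36) and Olfr1341 (2.30) through Olfr1340 (1.60) and Olfr1339 (0.606) to Olfr1338 (0.164). Against all 10 rows, with a median of 1.88, the ethyl vanillin receptor was slightly lower, with a log2 difference of -0.29. Against the other 12 rows of its own cluster it was higher, at 1.37, and ranked 4 of 13. The direction for Olfr62 therefore rests on the choice of rows.

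Olfr16, the lyral receptor (chromosome 1, 174886899 to 174887948), is likewise the first of 20 rows in its cluster, which ends at 176.4 Mb. The 5 rows after it were all lower, from 0.555 (Olfr418-ps1) to 1.35 (Olfr1406), with a median of 0.676, so Olfr16 was 2.05 times as high. The 5 rows before it, across 80369 kb, included Olfr1412 (7.16), Olfr12 (7.05) and Olfr1411 (4.75), all higher. Over the 10 rows the median was 0.883 and the log2 difference 0.59. Olfr16 ranked 6 of 20 in its cluster.

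Position and sequence family overlap for these genes, and the families gave a partly different order. Rows without a family name in RefSeq were left out. Olfr73 was the highest of the 14 receptors of MOR174, all in the same cluster. The others ran from 0.0215 to 1.77, with Olfr1168 (1.77) and Olfr1157 (1.12) highest and a median of 0.538, so Olfr73 was 4.63 times that median. The 2 receptors most like it in coding sequence had unequal values. They were Olfr74 (78.1% identical), a status NOTEST row at 0.0286, and Olfr1155 (77.4%) at 0.947. Both were lower than the eugenol receptor, as were the next by identity, Olfr1161 (0.228), Olfr1162 (0.649) and Olfr1163 (0.281).

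**Figure D3:**
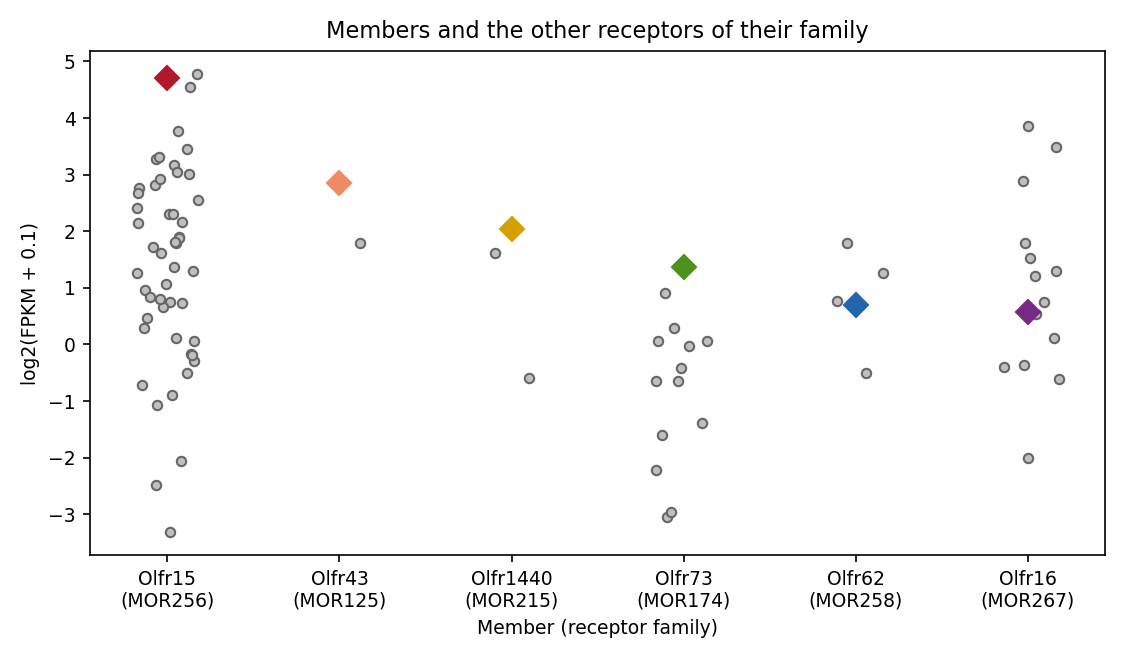
The y axis gives log2(FPKM + 0.1) for each receptor (diamond) and for the other rows of its MOR family (grey circles, spread sideways only for visibility). Olfr1440 and Olfr73 are the highest of their families and Olfr15 the second of 50, Olfr43 has only its near copy Olfr403 beside it, and Olfr62 and Olfr16 lie among the others.

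Olfr15 was second of the 50 rows of MOR256, a family spread over 4 chromosomes with no other member in its cluster. Olfr1384 (27.5) was higher and Olfr1364 (23.4) was next below. The median of the other 49 rows was 2.96, of which Olfr15 was 8.78 times. Its closest relatives in coding sequence were Olfr90 (68.5% identical, 2.96) and Olfr1361 (68.3%, 1.57), both far lower. Olfr1384 and Olfr1364, the relatives of like level, were 63.7% and 65.7% identical to it.

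Olfr1440 was the highest of the 3 rows of MOR215, all on chromosome 19, with Olfr76 at 2.95 and Olfr1441 at 0.567. By coding sequence it was closer to rows named MOR214. These were Olfr1434 (71.9% identical), counted in the merged row at 0.369, and Olfr235 (70.7%) at 5.05, against 67.7% for Olfr76 and 68.1% for Olfr1441. The muscone receptor lay between the merged row and Olfr235 in level, and Olfr1434 has no value of its own.

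Olfr62 ranked 4 of 5 in MOR258, whose rows are all within its cluster. Olfr1342 (3.36) and Olfr1341 (2.30) were the highest, and the median of the 4 others was 1.95. The relatives most like it in sequence were Olfr1339 (78.9%, 0.606) and Olfr1342 (75.8%, 3.36), below and above it. Olfr16 ranked 9 of 15 in MOR267, with Olfr55 (14.5) and Olfr239 (11.1) on chromosome 17 highest and a median of 1.90 for the 14 others. Its closest relatives by sequence were its neighbours Olfr418-ps1 (73.5%, 0.555) and Olfr218 (70.9%, 0.676), both lower than the lyral receptor.

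Olfr43 has a near copy, and this sets it apart from the other 5. Olfr403 lies 9.75 kb before it (chromosome 11, 74009007 to 74009948), and RefSeq lists each symbol as a synonym of the other. Their coding sequences of 942 bases are 98.7% identical and differ at 12 positions, whereas the next most similar row to Olfr43, Olfr161, is 67.2% identical. Counted from the first base of the start codon, with the base of Olfr43 first, the differences are C15T, C29T, G316T, G317C, C318A, C323G, T327C, A387G, C496T, C651T, C917A and C930T. The 60 bases with the most differences, 5 of the 12, are shown from base 288 to base 347 of each, with capitals at the bases that differ and by which a read could be told to come from one or the other.

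Olfr43: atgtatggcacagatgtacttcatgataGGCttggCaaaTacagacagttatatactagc
Olfr403: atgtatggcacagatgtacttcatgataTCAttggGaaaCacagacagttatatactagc

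The longest run of identical bases between the copies was 286 bases, from base 30 to base 315, and 4 runs of at least 100 bases held 813 of the 942. Of all 50-base windows of the Olfr43 coding sequence, 26.3% were found in no transcript of another gene in GENCODE M21. No source used here gives the read length, and the share was 19.7% with 36 bases, 39.3% with 75 and 50.5% with 100. Besides Olfr403, the shared 50-base windows matched the pseudogenes Olfr405-ps1 and Olfr408-ps1. For Olfr15, Olfr1440, Olfr62 and Olfr16, every window was unique at each of these 4 lengths, and for Olfr73 this held at 50 bases and more, with 99.4% at 36. Over 1092 rows, compared with Olfr transcripts only, 31.0% had every 50-base window unique. In 33.7% of these rows, under 80% of the windows were unique.

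**Figure D4:**
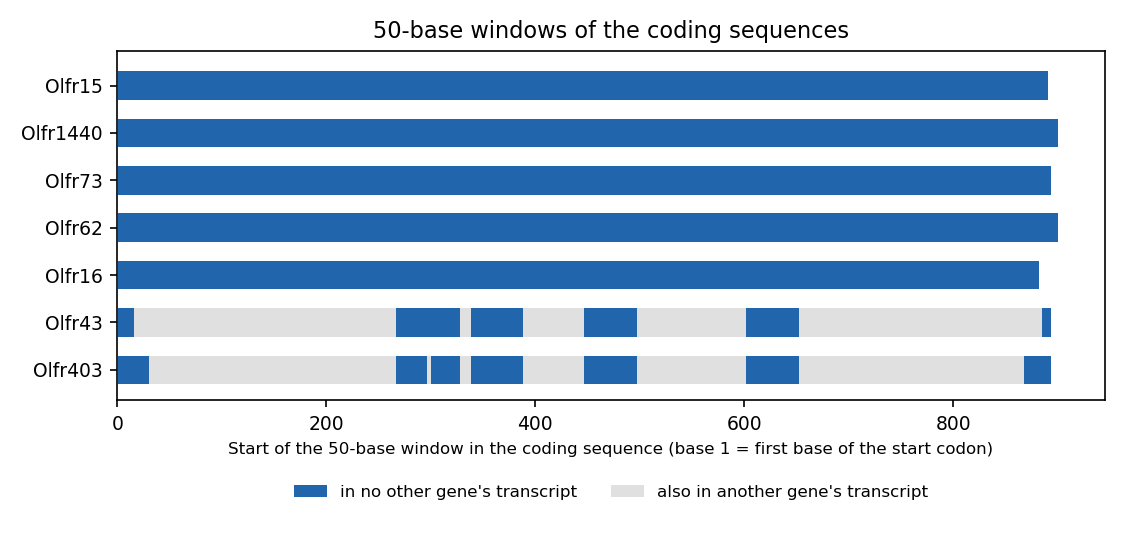
Horizontal bars give, for each start position of a 50-base window in the coding sequence, whether the window occurs in no other gene's transcript in GENCODE M21 (blue) or also in another gene (grey). The bars of 5 receptors are blue throughout, while Olfr43 and Olfr403 are blue only around the positions at which the copies differ.

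The deposited values were 7.11 for Olfr43 and 3.36 for Olfr403, which gives Olfr43 67.9% of the sum of 10.5. They are the only rows of MOR125, so which of them is higher rests on this split alone. How the authors' counting treated reads that fit both genes is not stated, so this split is uncertain. The sum is uncertain too, since shared windows also matched Olfr405-ps1 and Olfr408-ps1, which have no rows of their own. The alternatives that follow hold the sum fixed. Taken as 1 row, the pair would rank 56 of 1111. With both set to the mean of the pair, Olfr43 would stand above 86.8% of the other rows in place of 91.0%, and its log2 difference from its nearest rows would be 2.84 in place of 3.28. With the values exchanged, Olfr43 would have 3.36, stand above 77.3% of the other rows and have a log2 difference of 2.22. These alternatives were chosen after the values were seen.

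Finally, the gene models behind the FPKM values were compared with current transcripts. Each of the 6 has a single-exon transcript in GENCODE M21 along with longer ones of more exons. For Olfr15, Olfr1440, Olfr73 and Olfr62 the deposited locus has exactly the length of the coding sequence with its stop codon (939, 948, 942 and 948 bases), so the untranslated regions (UTRs) lie outside it. The loci of Olfr43 (1092 bases) and Olfr16 (1050 bases) exceed the coding length by 150 and 120 bases. The longest coding transcripts were far longer, from 2018 bases for Olfr43 to 7588 for Olfr1440.

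**Figure D5:**
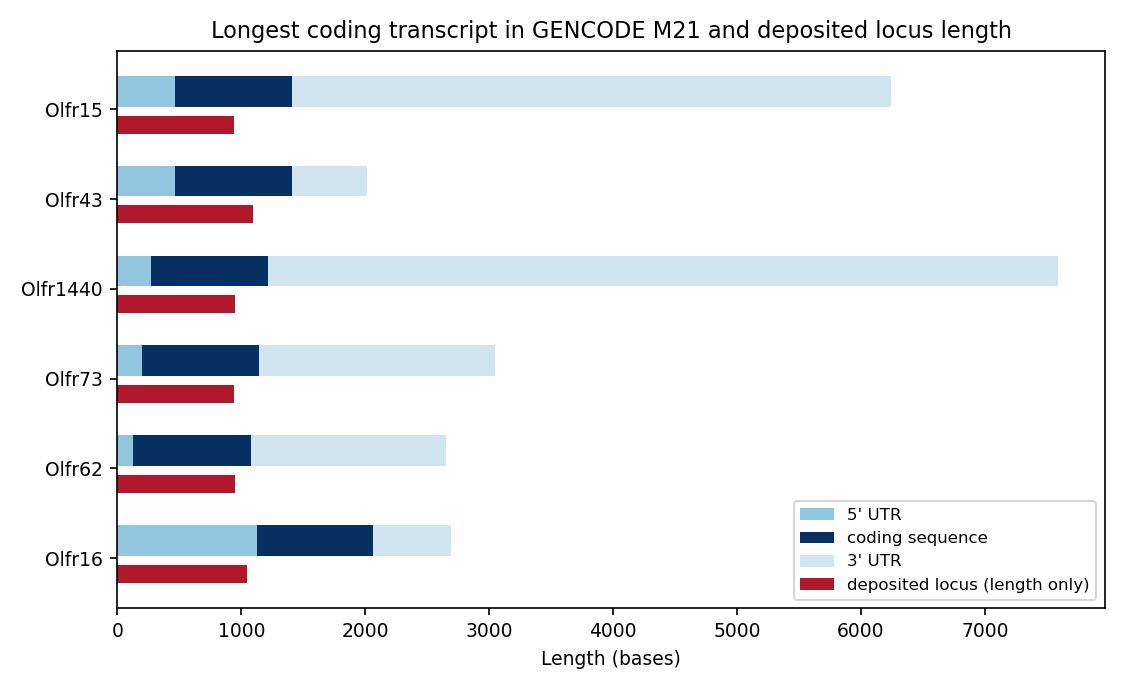
For each receptor, the upper bar shows the 5′ UTR, coding sequence and 3′ UTR of its longest coding transcript in GENCODE M21, in bases, and the thin red bar the length of the deposited locus, drawn from 0 for length only. Olfr15 and Olfr1440 have the longest 3′ UTRs, and every deposited locus is shorter than the transcript.

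The muscone receptor Olfr1440 has an annotated 3′ UTR of 6372 bases and the broadly tuned Olfr15 one of 4834, and their deposited loci correspond to 12.5% and 15.0% of the transcript length. For Olfr73, Olfr62, Olfr16 and Olfr43 the share was 30.9%, 35.7%, 39.0% and 54.1%. Over 847 rows with a locus under 1000 bases and a coding transcript in GENCODE, the interquartile range was 23.4% to 50.2%, so Olfr15 and Olfr1440 fall below it. The lyral receptor Olfr16 has the longest annotated 5′ UTR of the 6, 1129 bases, against 130 for Olfr62. Since FPKM is scaled to the length of the model, these receptors can be compared per length, but reads from the UTRs outside the models would not enter the values. Whether this part of each transcript moved the order of the 6 was not tested. The GC content of the coding sequence ran from 41.7% in Olfr73 to 50.5% in Olfr15, with 49.5% in Olfr43 and 48.3% in Olfr62, and the interquartile range over 1091 rows was 41.4% to 47.3%. Its part in the levels was not tested either.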

How the data were processed

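RNA-seq libraries (Trizol, TruSeq, per the labels' protocols) were made from adult olfactory epithelium. The authors deposited 1 FPKM value per row. TopHat2, Bowtie2, Cuffdiff and mm9 are named in the submitters' processing notes, without versions. Neither the gene annotation nor the handling of shared reads is stated. Locus starts count from 0 in the table, and 1 was added.

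The receptors, lists and rules were chosen with earlier results of these data known. The text names, for each receptor, the highest and lowest nearest row, the rows next to it in FPKM, the 2 highest relatives of its MOR family and the 2 most similar coding sequences. Identity of coding sequences replaced that of proteins, which were not used here. Other named rows were chosen after their values were seen.

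Families and class came from synonyms in RefSeq (GRCm38.p6), which matched 1094 rows by symbol and 13 by an older one. Rows without a family name there, such as Olfr1380, Olfr1373 and Olfr1173, entered no family count or median. Their class was taken from the number in the symbol. Any class I family among the synonyms made a row class I, as for Olfr1137, whose first listed family is MOR177. Transcripts came from GENCODE M21 (GRCm38), used without its coordinates. Coding sequences were aligned end to end with edlib 1.3.9.post1 (python-edlib) and Python 3.11.15. The nearest-row calculation was tested on simulated data. Among 179 low rows with coding-length loci, 29.6% came out as whole reads (tolerance 0.1) at the best of the steps tried, so read numbers were not recovered and depth is unknown. The pseudocount was 0.1. The alternatives used 3 or 10 rows a side, the cluster alone, pseudocounts of 1 and 0.01, an FPKM minimum of 0.1, status OK, no pseudogenes, at least 80% unique 50-mers, class II and loci of like length.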

Additional observations from a re-analysis of the deposited data

How the results depend on the processing

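Values were taken as moved when a log2 difference shifted by a factor of 1.5 or more, or a percentage left its 95% exact binomial interval, which covers the number of rows only. Of 103 alternative values, 67 stayed, 34 moved and 2 reversed, and the cause was not tested beyond the rows each alternative adds or drops. The 2 reversals were those of Olfr62, from -0.29 to 0.81 with 10 rows on each side and to 1.37 against its whole cluster. With 3 rows on each side the difference was 3.80 for Olfr15, 2.44 for Olfr43 and 1.66 for Olfr1440. With 10 rows it was 2.68 for Olfr43, 1.24 for Olfr1440 and 2.11 for Olfr73. Against the whole cluster it was 2.32 for Olfr43, 1.39 for Olfr1440, 1.10 for Olfr73 and, with Olfr161 as the sole other row, 7.51 for Olfr15, the same as with nearest rows kept to the cluster. Among neighbours at FPKM 0.1 or more it was 2.08 for Olfr43, 1.15 for Olfr1440 and 2.03 for Olfr73, and among those with status OK 2.08, 1.05 and 1.69. A pseudocount of 1 gave 2.30, 1.63 and 1.48 for the same receptors. Neighbours with at least 80% unique 50-mers gave 0.56 for Olfr1440. The share of other rows that were lower, ranked among rows with status OK, was 89.0% for Olfr43, 77.3% for Olfr1440, 64.2% for Olfr73, 49.9% for Olfr62 and 46.8% for Olfr16. Among class II rows it was 67.5% for Olfr73, 55.1% for Olfr62 and 52.4% for Olfr16, and among rows at FPKM 0.1 or more 55.2% for Olfr62 and 52.4% for Olfr16. It was 86.8% for Olfr43 at the mean of the pair with Olfr403 and 77.3% with their values exchanged, where the log2 difference was 2.22. These alternatives were chosen after the values were seen. The ratio of the receptors' median to that of all rows stayed within a factor of 1.5 when each was left out in turn.

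No paired analysis was possible because the table holds 1 value per row, and for the same reason values without replicate 1 or 2 were not run. Unknown depth means that counting error on the low rows could not be given.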
